A study of Rattus norvegicus with 15 samples.

Results

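H9c2 myoblasts kept for 7 days in differentiation medium with all-trans retinoic acid (RA) were compared with H9c2 myoblasts kept for the same time without it. The comparison used 6 of the 15 RNA-seq libraries of the study, 3 labelled T7+RA and 3 labelled T7-RA, and took in all 11574 genes of the deposited count table. Both groups were wild type and were grown in medium with 1% serum, and the T7+RA cultures also received 1 µM RA every day. The RA was dissolved in DMSO, and whether the T7-RA cultures received DMSO alone is not given in the sources used here. The other 9 libraries were T0, T14-RA and T14+RA, with 3 in each group, and they entered the fit as further group means. H9c2 is a single clonal line from embryonic rat heart that can form multinucleated muscle cells, so the 3 libraries of a group are biological replicates of 1 line and not of different animals. The titles of all samples name H9c2, although the cell line field of the labels counts upwards from one sample to the next.

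RA is made from vitamin A and acts through the retinoic acid receptors, which pair with retinoid X receptors and bind response elements in the DNA. Without ligand these pairs hold corepressors at their targets, and with ligand they recruit coactivators. Among the best known targets are the enzymes that remove retinoids from the cell, so that RA limits its own level. In the developing heart RA helps to set the inflow region, and in myoblast cultures it is used to steer differentiation.

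The T7-RA libraries held 666344, 727149 and 825712 counts at the lowest, middle and highest, the T7+RA libraries 585103, 695966 and 742925, and no library stood apart from its group. On log2(CPM + 1) values of 8427 genes, Pearson's r was 0.9554 to 0.9645 between libraries of the same group and 0.912 to 0.9247 between libraries of different groups. CPM, the counts of a gene relative to all counts of its library, are scaled here by the TMM method. The 10 highest genes held 6.69% to 7.32% of the counts in T7-RA and 6.4% to 6.89% in T7+RA. At this depth the SE of a log2 difference was 0.187 for the median gene at or above the median mean count of 24.3, and 0.442 below it.

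RA changed 367 genes at day 7 (3.17% of those tested, adjusted p under 0.001), of which 216 were higher with RA (1.87%) and 151 were lower (1.3%). The median size of the change among these genes was 1.15 on the log2 scale, and the smallest was 0.41. A log2 difference above 1 was found for 128 of the higher and 93 of the lower genes, and one above 3 for 14 and 16 genes. In all 367 genes the 3 T7+RA values lay outside the range of the 3 T7-RA values, which was also true of 24.4% of all genes. Over all genes the median log2 difference was -0.02, a centre that the TMM scaling sets near 0, and -0.05 when libraries were scaled by size alone. Calls followed depth: 5.55% of the better counted genes (mean count not below the median) were called and 0.78% of the rest. At the looser threshold of 0.05 the fit called 858 genes (7.41%), 478 higher (4.13%) and 380 lower (3.28%). The share of a gene list's measured members that was called is given beside its counts, to be read against the 3.17% of all genes.

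**Figure D1:**
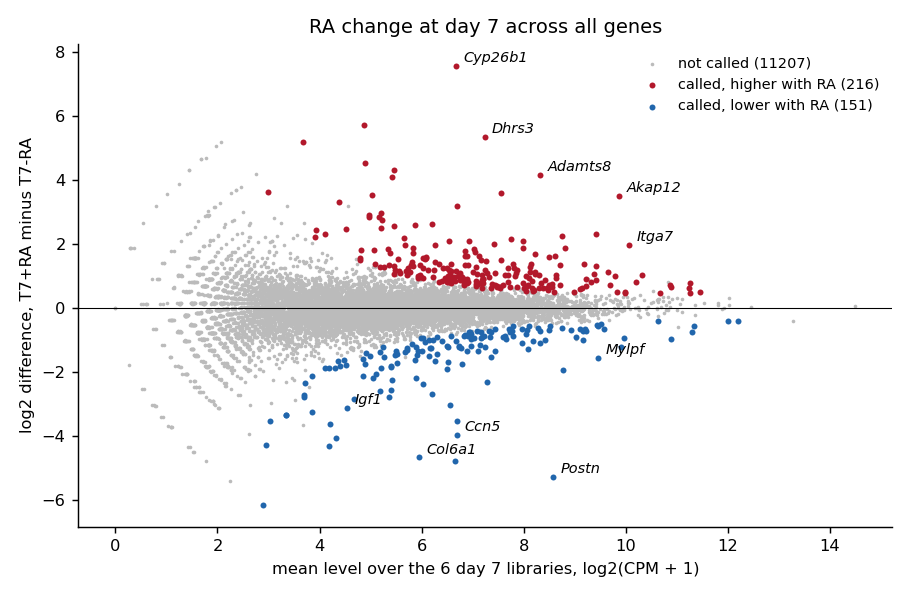
Log2 difference between T7+RA and T7-RA (y axis) against the mean level over the 6 day 7 libraries (x axis, log2(CPM + 1)) for each of the 11574 genes. The 216 genes called higher are red and the 151 called lower are blue, Cyp26b1 and Dhrs3 lie at the top, Postn lies among the lowest of the well counted genes, and few calls lie at the left, where counts are low.

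Among the largest rises were those of 2 enzymes that clear retinoids. Cyp26b1 (band 4q34), the cytochrome P450 that oxidises RA to less active forms, was at 2.39, 0 and 0 CPM in the T7-RA libraries and at 187, 203 and 214 CPM in the T7+RA libraries. T7-RA thus held 2 counts in all against 407 in T7+RA, a ratio of 228 (95% exact interval of 62.6 to 1890, counting error only; adjusted p = 5.04e-27). Dhrs3 (5q36), the reductase that turns retinal back to retinol, rose from 7.16, 5.38 and 8.71 CPM to 298, 289 and 291 CPM. The groups were far apart, and the log2 difference was 5.34 ± 0.22 (SE, n = 3 in each group; adjusted p = 4.56e-30). These were the 2 called genes among 15 measured members (13.3%) of a list of retinoid metabolism and binding, whose median log2 difference was 0.10.

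Of 15 measured genes known for induction by retinoids, 5 were called (33.3%), all higher with RA (1.87% of all genes). Beside Cyp26b1 and Dhrs3 they were Tgm2, Rai14 and Gprc5a. Tgm2 (3q42), the transglutaminase that crosslinks proteins, was at 7.16, 4.03 and 14.5 CPM without RA and at 74.1, 73.8 and 34.3 CPM with it. Its log2 difference was 2.86 ± 0.351 (adjusted p = 4.2e-09), and its T7+RA replicate 3 was lower than the others but still above all T7-RA libraries. Rai14, an actin-binding protein named for its induction by RA, rose by 1.29 ± 0.12 on the log2 scale, and Gprc5a, an orphan G protein-coupled receptor, by 1.55 ± 0.25. None of 13 measured retinoid receptors and coregulators and none of 20 measured Hox, Meis and Pbx genes was called by edgeR, DESeq2 or any of the limma fits, and 4 and 3 of them had an unadjusted p under 0.05. One receptor or coregulator was called when libraries were scaled by size alone, fitted without the other days or thinned to the smallest library. The receptor Rarg was at 125, 96.8 and 87.1 CPM without RA and 137, 113 and 106 CPM with it, overlapping ranges (log2 0.20 ± 0.159, adjusted p = 0.62). The classical targets Rarb, Crabp2 and Stra6 are not among the genes analysed here.

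Receptor pairs bind direct repeats of a short half-site with a spacer, named DR1, DR2 and DR5 for the spacer of 1, 2 or 5 bases. These 3 motifs were searched on both strands of RefSeq promoter windows of build GRCr8, which held 171 of the 216 higher and 114 of the 151 lower genes. Over all 33469 windows, 0.233% held a DR1, 0.17% a DR2 and 0.382% a DR5. One called gene, Gadd45a, held a match, a DR2 that lay 98 to 85 bases before the annotated start. It is shown because it was the single match among the called genes, and the capitals mark it in the window chr4:97486844-97486937 (minus strand of GRCr8), where it reads AGGTCATTGGGTCA on the other strand.
Gadd45a promoter: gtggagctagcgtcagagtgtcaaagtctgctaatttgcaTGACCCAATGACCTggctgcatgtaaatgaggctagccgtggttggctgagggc
Gadd45a, a stress-induced growth arrest gene, was at 83.5, 63.2 and 85.7 CPM without RA and at 204, 159.7 and 204 CPM with it (log2 1.28 ± 0.152, adjusted p = 9.67e-10). The match is a description of these letters only, and receptor binding was not measured.

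Several of the other large rises were scaffold, matrix and adhesion genes. Akap12 (1q11), a scaffold that anchors protein kinases A and C, had the lowest p of all genes, with 136, 169 and 151 CPM in T7-RA against 1706, 1788 and 1666 CPM in T7+RA (log2 3.50 ± 0.115, adjusted p = 3.39e-35). Akap5, another kinase anchor, rose by 3.32 ± 0.425 from a far lower count. Adamts8 (8q13), a secreted metalloproteinase, went from 34.6, 34.9 and 30.5 CPM to 596, 636 and 583 CPM, a log2 difference of 4.17 ± 0.148 (adjusted p = 1.22e-33). Both Akap12 and Adamts8 were tight within groups and differed between them by more than 10-fold.

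Gdpd5, a membrane phosphodiesterase, was at 33.4, 28.2 and 23.2 CPM without RA and 339, 349 and 343 CPM with it (log2 3.58 ± 0.158, adjusted p = 2.02e-28). Itgax, an integrin alpha chain best known from leukocytes, rose from 4.77, 4.03 and 4.36 CPM to 85.5, 69.8 and 82.3 CPM (log2 4.11 ± 0.338, adjusted p = 1.39e-15). Of 8 markers of leukocytes and macrophages 1 was in the table, and it was not called (0 at an unadjusted p under 0.05). Mamdc2 (log2 4.30 ± 0.344), Crispld2 (3.54 ± 0.363) and Afap1l2 (3.18 ± 0.206) also rose. Mcpt1, a mast cell protease, had 2 counts over the 3 T7-RA libraries and 113 over the 3 T7+RA libraries, a ratio of 63.2 (95% exact interval of 17.1 to 528). It belongs to a family of closely similar genes, and how the counting treated reads shared between them is not given in the sources used here.

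Among the largest falls of genes with a mean count of at least 10 over the 6 libraries were matrix genes and a water channel. Postn (2q26), the matricellular protein periostin, was at 757, 864 and 611 CPM in T7-RA and at 25.7, 17.5 and 13.7 CPM in T7+RA, a log2 difference of -5.27 ± 0.207 (adjusted p = 2.69e-20), or 38.5-fold lower with RA. Aqp1 (4q24), the water channel aquaporin 1, fell from 175, 209.6 and 193 CPM to 4.28, 8.05 and 8.57 CPM (log2 -4.76 ± 0.256, adjusted p = 4.53e-24). Both genes were higher in every T7-RA library than in any T7+RA library by an order of magnitude.

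Col6a1 (20p12), a chain of collagen VI, fell from 116, 91.4 and 144 CPM to 2.85, 5.37 and 5.14 CPM (log2 -4.66 ± 0.306, adjusted p = 6.19e-20). Ccn5, a secreted matricellular protein of the CCN family, fell from 198, 204 and 179 CPM to 17.1, 9.4 and 10.3 CPM (log2 -3.96 ± 0.232, adjusted p = 3.07e-22). Olfml2b, a secreted olfactomedin-like protein, fell by 3.52 ± 0.21, and Fmod, the collagen-binding proteoglycan fibromodulin, fell by 3.02 ± 0.238. Abi3bp, a matrix protein, fell from 47.7, 37.6 and 43.6 CPM to 4.28, 5.37 and 8.57 CPM (log2 -2.83 ± 0.373, adjusted p = 1.99e-08). Cilp, a matrix protein first described in cartilage, had 82 counts over the T7-RA libraries and 4 over the T7+RA libraries, a ratio of 18.3 (95% exact interval of 6.89 to 68.8).

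Among the muscle and growth factor genes of this group, Hspb7, a small heat shock protein of heart and skeletal muscle, had 74 and 5 counts (ratio 13.2, interval 5.42 to 41.9). Trim54, a ubiquitin ligase of the sarcomere, fell by 3.23 ± 0.522 on the log2 scale. Igf1, the insulin-like growth factor 1, fell from 45.3, 26.9 and 47.9 CPM to 7.13, 2.68 and 3.43 CPM (log2 -3.12 ± 0.429, adjusted p = 5.95e-08). The uncharacterised processed transcript AABR07068316.1 had 74 and 3 counts (ratio 22.0, interval 7.26 to 109). All of these genes had T7+RA values below every T7-RA value, which the rule that chose the largest falls required.

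**Figure D2:**
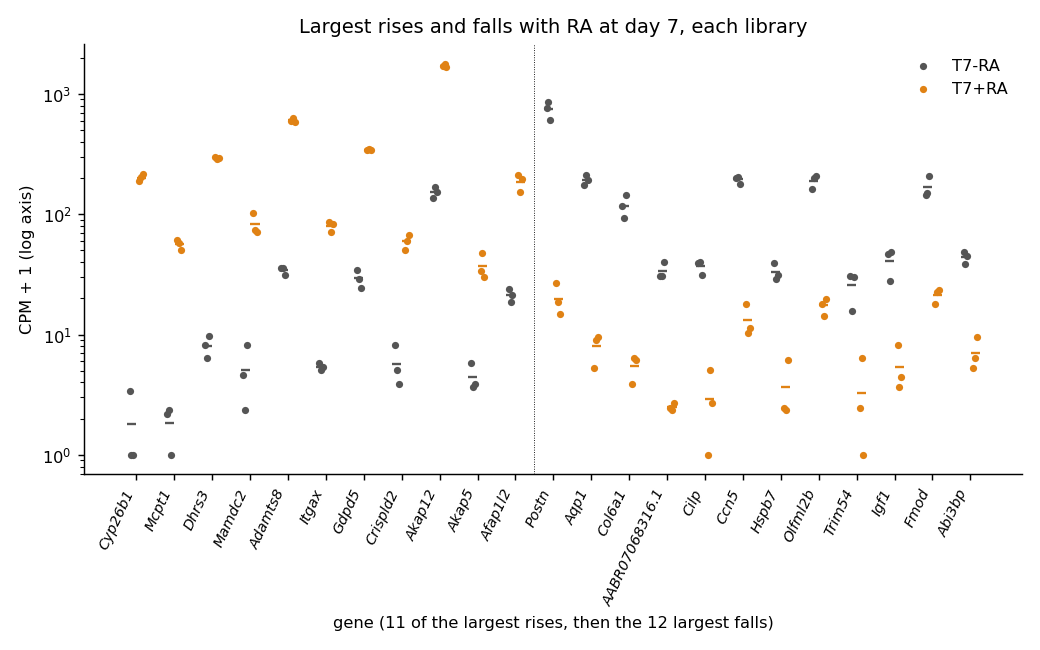
CPM + 1 (log axis) of 11 of the 12 genes with the largest rise and of the 12 with the largest fall at day 7 among called genes with a mean count of at least 10, with 1 point for each library and a bar at the group mean. T7-RA is grey and T7+RA is orange. The 2 groups do not overlap in any of these 23 genes, because only genes without overlap were chosen.

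Most of the called genes of the contractile apparatus were lower with RA. Of 34 measured sarcomere genes, 8 were called lower and 2 higher (29.4%), against 1.3% and 1.87% of all genes. Their median log2 difference was -0.65 (-0.30 with genes near a count of 0 set to their bound). Limma on quantile-normalized log2 counts called 2 of them. Myh3 (10q24), the embryonic myosin heavy chain, was at 1263, 1261 and 1492 CPM without RA and at 546, 521 and 670.2 CPM with it (log2 -1.21 ± 0.102, adjusted p = 5e-15). Mylpf (1q37), the fast skeletal regulatory light chain, went from 1022, 989 and 1126 CPM to 328, 305 and 444 CPM (log2 -1.55 ± 0.109, adjusted p = 4.26e-18). Both had been far lower before differentiation, at 40.8 ± 14 and 43.6 ± 10.7 CPM in T0 (SD, n = 3), so the T7+RA values lay between those of T0 and T7-RA.

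Tnnt3 and Tnni2, fast skeletal troponins T and I, fell by 1.29 ± 0.12 and 1.46 ± 0.245. Myl4, the embryonic and atrial light chain, fell by 1.65 ± 0.217, and Acta1, skeletal actin, by 0.72 ± 0.108 (adjusted p = 5.84e-07). Actc1, cardiac actin, fell by 1.77 ± 0.346 and the M-band protein Myom2 fell by 1.59 ± 0.296. These latter calls depended on single libraries: that of Actc1 was lost without T7+RA replicate 1 or 3 or T7-RA replicate 2 (adjusted p up to 0.00447), and that of Myom2 without T7+RA replicate 2 or T7-RA replicate 1 (up to 0.00295). The call of Actc1 was also lost by limma-voom, by limma on quantile-normalized log2 counts and with counts thinned to the smallest library. Close relatives within the myosin and actin families share sequence, and how reads shared between them were counted is not given in the sources used here.

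The exceptions in the sarcomere were Tnnc1 and Tpm1. Tnnc1 (16p16), troponin C of slow and cardiac muscle, was at 657, 609 and 517 CPM without RA and at 1222, 1112 and 1215 CPM with it (log2 0.99 ± 0.135, adjusted p = 7.62e-06). Tpm1, a tropomyosin used in muscle and other cells, rose by 0.47 ± 0.0866 (adjusted p = 5.27e-05), a call lost without T7+RA replicate 3 or T7-RA replicate 2 (up to 0.00141). In summed CPM, 11 measured skeletal muscle markers ran from 4256 to 4938 in T7-RA and from 2325 to 2729 in T7+RA. Of these markers, 5 were called lower (45.5%), a larger share than among all genes. The list shares genes with the sarcomere list, among them Mylpf and Acta1, so its calls are not separate evidence. Fewer differentiated cells and less of these mRNAs in each cell cannot be told apart in such bulk libraries. Cardiac markers were sparse, since 3 of 12 were in the table, and Ryr2, Myh7 and Tnni3 were not among the genes analysed here. The 3 measured markers summed to 404 to 464 CPM in T7-RA and 309 to 332 CPM in T7+RA, without overlap. Their median log2 difference was -0.33. Of the 3, 1 was called lower (33.3%), Actc1, whose call depended on single libraries. At an adjusted p under 0.05, 2 were lower.

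Of 12 measured myogenic transcription factors 1 was called higher and none lower (8.33%, against 3.17% of all genes), and 3 in each direction had an unadjusted p under 0.05. With the 6 day 7 libraries alone, and likewise with a replicate block, 5 of the 12 were called. Myog, which drives terminal differentiation, was at 415, 407 and 485 CPM against 295, 341 and 312 CPM, a log2 difference of -0.46 ± 0.109 that missed the threshold (adjusted p = 0.00227). Myod1, which commits cells to the lineage, was at 76.3, 91.4 and 95.9 CPM against 135, 161 and 149 CPM, also short of it (log2 0.77 ± 0.171, adjusted p = 0.00106). Neither gene overlapped between the groups, and they differed in opposite directions. Both passed the threshold with the 6 day 7 libraries alone (adjusted p = 0.000407 for Myog and 2.57e-05 for Myod1). They also passed with a replicate block (0.000646 and 0.000248) or without T0 replicate 2 (0.000587 and 0.000201). Myod1 also passed without T0 replicate 3, T14+RA replicate 2 or 3, or T14-RA replicate 1 or 2 (0.000193 to 0.000908), and with relative log expression size factors (0.000993).

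Among 16 measured fusion and muscle adhesion genes, 4 were called higher and 1 lower (31.2%, against 3.17% of all genes). Ncam1, the neural cell adhesion molecule that also marks myoblasts, rose from 493, 509 and 516 CPM to 1166, 1035 and 1079.8 CPM (log2 1.11 ± 0.101, adjusted p = 6.41e-14). Cdon, a surface coreceptor that promotes myogenesis, rose by 1.03 ± 0.13, and Dysf, dysferlin of membrane repair, by 0.78 ± 0.113. The other calls, Cd81 (0.68 ± 0.123) and the actin crosslinker Flna (-0.41 ± 0.0878), were lost with 1 library left out, Cd81 without replicate 3 of either group (adjusted p up to 0.00246) and Flna without any of the 6 day 7 libraries, T0 replicate 1, or T14-RA replicate 1 or 3 (up to 0.0159). Chrnb1, the beta subunit of the muscle acetylcholine receptor, was the single call of 15 neuromuscular junction genes (6.67%; log2 0.96 ± 0.174, adjusted p = 3.41e-05).

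Of 31 measured genes of calcium handling and excitation-contraction coupling, 3 were called (9.68%), all lower (1.3% of all genes), and the list median was -0.07. Atp2b4, a plasma membrane calcium pump, fell from 113, 126 and 138 CPM to 54.2, 53.7 and 54.8 CPM (log2 -1.21 ± 0.184, adjusted p = 7.89e-07). Cacng1, the gamma subunit of the skeletal calcium channel, had 38 and 3 counts (ratio 11.3, interval 3.59 to 57.3), and its call was lost without T7+RA replicate 2 or 3 or T7-RA replicate 3 (adjusted p up to 0.00142). The IP3 receptor Itpr3 fell by 0.93 ± 0.159 and lost its call without replicate 1 of either group (up to 0.00284). Smooth muscle contractile genes had 1 call in each direction among 20 measured (10%, against 3.17% of all genes): Mylk, the myosin light chain kinase, rose by 1.20 ± 0.151, and Smtn, smoothelin, fell by 0.75 ± 0.16 with a call lost without T14-RA replicate 3, T7-RA replicate 1 or 2, or any T7+RA library (up to 0.0284).

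The called integrin genes, which encode receptors for the matrix, were all higher with RA. Of 17 measured integrin subunits, 8 were called higher and none lower (47.1%), against 1.87% and 1.3% of all genes, with a median log2 difference of 0.63. At an unadjusted p under 0.05 the numbers were 10 higher and 3 lower. The 8 calls were kept with each of the 15 libraries left out in turn. Limma on quantile-normalized log2 counts called 4 integrin subunits, and asking for at least 10 counts in every library left 6 called. The summed integrin level was 3822 to 3879.7 CPM in the T7-RA libraries and 7296 to 7425 CPM in the T7+RA libraries, with no overlap. Itga7 (7q11), the alpha chain of the laminin receptor of muscle, had the lowest p of the family, at 439, 414 and 444 CPM without RA and 1722, 1721 and 1679.7 CPM with it (log2 1.98 ± 0.0925, adjusted p = 3.19e-27).

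Its partner Itgb1, the beta chain shared by most matrix-binding integrins, rose from 1888, 1970.1 and 1877 CPM to 3083, 2863 and 2837 CPM (log2 0.62 ± 0.0839, adjusted p = 4.88e-08). Itga3, another laminin-binding chain, rose from 104, 80.6 and 105 CPM to 401, 415 and 418 CPM (log2 2.09 ± 0.135, adjusted p = 2.9e-20). The collagen-binding chain Itga11 rose by 1.25 ± 0.137, Itga8 by 2.57 ± 0.314, the fibronectin-binding chain Itga5 by 0.63 ± 0.109 and Itgb5 by 0.91 ± 0.0996. Itgax, described above, was the remaining call.

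The list of basement membrane genes also holds the laminin receptor dystroglycan. It had 5 calls higher and 1 lower among 15 measured (40%), against 1.87% and 1.3% of all genes. Nid1, nidogen 1, rose by 0.65 ± 0.0898 and Nid2 by 1.03 ± 0.115. Dag1, which encodes this receptor, rose from 602, 601 and 668 CPM to 1078, 1001 and 1019.8 CPM (log2 0.73 ± 0.0997, adjusted p = 5.23e-08). Col4a1, a chain of the collagen IV network, rose by 0.73 ± 0.0941. Col4a2 rose by 0.49 ± 0.0999, a call lost without T7+RA replicate 1 or 2 or T7-RA replicate 2 or 3 (adjusted p up to 0.0103). Lama4, the laminin alpha 4 chain, fell by 0.99 ± 0.199, a call lost without T7-RA replicate 3 or any T7+RA library (up to 0.00811).

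The collagens split, with 5 called higher and 5 lower among 20 measured (50%, against 3.17% of all genes), and the summed level of the list overlapped (34217 to 38504 CPM in T7-RA, 36388 to 40000.3 CPM in T7+RA). Col11a1 (2q41), a fibril-forming chain that nucleates fibrils, rose from 137, 167 and 148 CPM to 701, 707 and 719.9 CPM (log2 2.24 ± 0.124, adjusted p = 1.82e-23). Against it, both chains of collagen VI called here fell: beside Col6a1, Col6a2 went from 124, 132 and 126 CPM to 28.5, 22.8 and 5.14 CPM (log2 -2.69 ± 0.236, adjusted p = 3.34e-14). These chains form one trimer and are annotated at the same band, 20p12. Col5a3 fell by 1.42 ± 0.199 and Col8a2 by 1.23 ± 0.165, whereas Col8a1 rose by 0.68 ± 0.106.

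Among enzymes that process collagen, 5 of 20 were called higher and 1 lower (30%, against 3.17% of all genes). Loxl2, a lysyl oxidase that crosslinks collagen, rose from 180.1, 171 and 221 CPM to 637, 758 and 715 CPM (log2 1.89 ± 0.117, adjusted p = 5.86e-21). Plod2 and P4ha1, hydroxylases of lysine and proline in collagen, rose by 0.77 ± 0.119 and 0.72 ± 0.108. Adamts14, a procollagen peptidase, rose by 1.84 ± 0.278.

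Matricellular proteins and proteoglycans were called lower in 6 and higher in 4 of 18 measured (55.6%, against 3.17% of all genes). Postn, Ccn5 and Fmod have been given above. Bgn, the proteoglycan biglycan, fell from 3147, 3255 and 2960.0 CPM to 1876, 1932 and 1817 CPM (log2 -0.73 ± 0.0851, adjusted p = 3.86e-10). Thbs1 and Thbs2, thrombospondins, fell by 0.56 ± 0.09 and 1.62 ± 0.235. Of the members called higher, Ccn2, connective tissue growth factor, rose from 501, 532 and 407 CPM to 844, 917 and 866 CPM (log2 0.86 ± 0.0984, adjusted p = 2.22e-10), and Spp1, osteopontin, rose by 1.01 ± 0.166. The 2 members Ccn2 and Ccn5 of the same family thus moved in opposite directions.

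Caveolae, the small membrane pits of muscle and other cells, had 2 called genes among 10 measured (20%), both lower (1.3% of all genes). Cav1, the scaffold caveolin 1, fell from 391, 449 and 452 CPM to 192, 203 and 214 CPM (log2 -1.08 ± 0.115, adjusted p = 2.24e-11). Cavin1, its coat protein, fell from 855, 968 and 948 CPM to 532, 626 and 614 CPM (log2 -0.65 ± 0.0942, adjusted p = 2.77e-07). No member had a positive log2 difference, and the summed level ran from 2818 to 3165 CPM without RA and from 2064 to 2292 CPM with it.

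**Figure D3:**
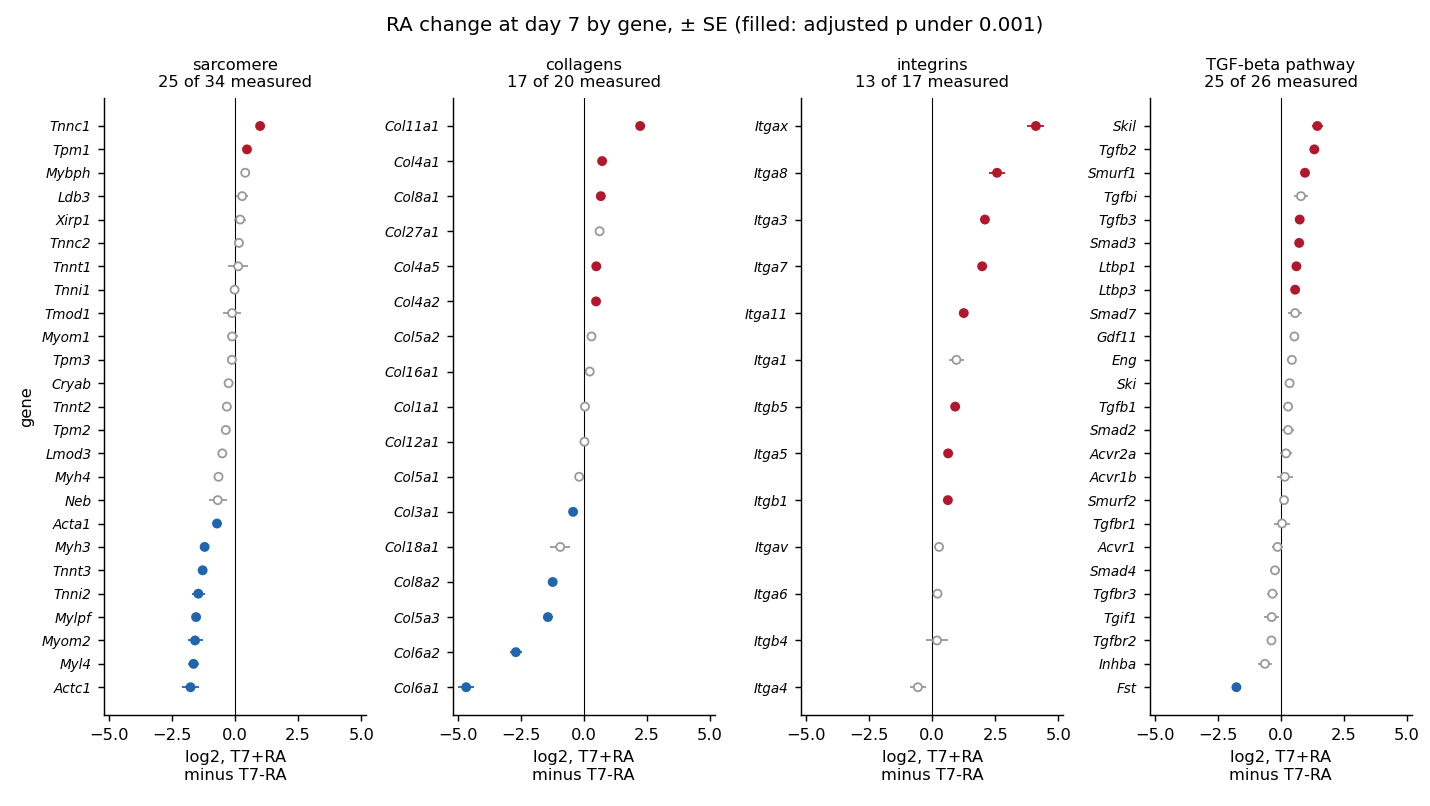
Log2 difference between T7+RA and T7-RA with its SE (x axis) for the sarcomere, collagen, integrin and TGF-beta pathway genes with a mean count of at least 10 over the 6 libraries, 1 gene in each row. Filled points passed an adjusted p of 0.001, red higher and blue lower: 8 integrins and 7 TGF-beta pathway genes lie to the right, 8 sarcomere genes lie to the left, and the collagens have 5 on each side.

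In the TGF-beta pathway, 7 of 26 measured genes were called higher and 1 lower (30.8%, against 3.17% of all genes), with a median log2 difference of 0.29. Among the ligands, Tgfb2 rose from 230.2, 249 and 235 CPM to 603, 595 and 603 CPM (log2 1.33 ± 0.105, adjusted p = 1.95e-16), and Tgfb3 rose by 0.75 ± 0.105. Fst, follistatin, which traps activin and myostatin, fell from 172, 151 and 186 CPM to 45.6, 53.7 and 49.7 CPM (log2 -1.76 ± 0.173, adjusted p = 1.43e-12). Ltbp1, which holds latent TGF-beta in the matrix, rose by 0.62 ± 0.0998. Inside the cell, Skil, a repressor of SMAD complexes, rose by 1.45 ± 0.223 and Smurf1, a ubiquitin ligase that targets pathway members, by 0.96 ± 0.145. Smad3, the signal transducer, rose by 0.73 ± 0.133, a call lost without T7+RA replicate 3 or T7-RA replicate 1 (adjusted p up to 0.00133).

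Insulin-like growth factor genes had 1 call higher and 3 lower among 16 measured (25%, against 3.17% of all genes). Beside Igf1, the binding protein Igfbp4 fell from 453, 478 and 423 CPM to 207, 238 and 238 CPM (log2 -0.99 ± 0.111, adjusted p = 1.48e-10). The fall of Igf2 by 0.41 ± 0.0919 was close to the threshold (adjusted p = 0.000944) and lost its call in 11 of the 15 fits that leave out a library, all but those without T0 replicate 2 or 3, T14+RA replicate 3 or T7-RA replicate 2 (up to 0.0621). Irs1, the docking protein of the receptor, rose by 1.34 ± 0.257 and lost its call without replicate 2 of either group or T7-RA replicate 3 (up to 0.00451).

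In the Notch pathway, 3 of 15 measured genes were called (20%), all lower (1.3% of all genes), while the list median was -0.39, and 0.00 with genes near a count of 0 set to their bound. The receptor Notch3 fell from 118, 102 and 102 CPM to 18.5, 25.5 and 17.1 CPM (log2 -2.37 ± 0.241, adjusted p = 4.93e-12). Its ligand Jag1 fell from 122, 109 and 74.1 CPM to 39.9, 56.4 and 30.9 CPM (log2 -1.24 ± 0.204, adjusted p = 4.16e-06). Notch1 fell by 0.86 ± 0.176, a call kept in 1 of the 6 fits without a day 7 library, the one without T7+RA replicate 1 (up to 0.00716).

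Other secreted signals changed in both directions. Sema3c (4q11), a guidance cue of neurons and of the cardiac outflow tract, rose from 216, 228 and 244 CPM to 1083, 1103 and 1219 CPM (log2 2.31 ± 0.119, adjusted p = 7.76e-24). The related Sema3a fell by 1.19 ± 0.175 and the guidance receptor Epha4 by 1.29 ± 0.232, and the 36 measured guidance genes held 3 calls higher and 5 lower (22.2%). Pdgfb, the platelet-derived growth factor B, rose from 28.6, 18.8 and 11.6 CPM to 72.7, 77.9 and 90.8 CPM (log2 1.98 ± 0.267, adjusted p = 3.7e-08). The calls among 24 measured Wnt genes (8.33%) were the secreted inhibitor Wif1, which fell by 2.57 ± 0.293, and Sfrp4, another secreted antagonist, which rose by 2.46 ± 0.384. Lif, a cytokine of the interleukin 6 family, rose from 20.3, 17.5 and 14.5 CPM to 91.2, 80.5 and 70.3 CPM (log2 2.19 ± 0.263, adjusted p = 1.11e-09). Among 16 measured YAP and TEAD genes, 4 were called higher and none lower (25%, against 3.17% of all genes; median 0.51), of which Ccn2 and Amotl1 (1.09 ± 0.189) kept their call in all 15 fits.

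**Figure D4:**
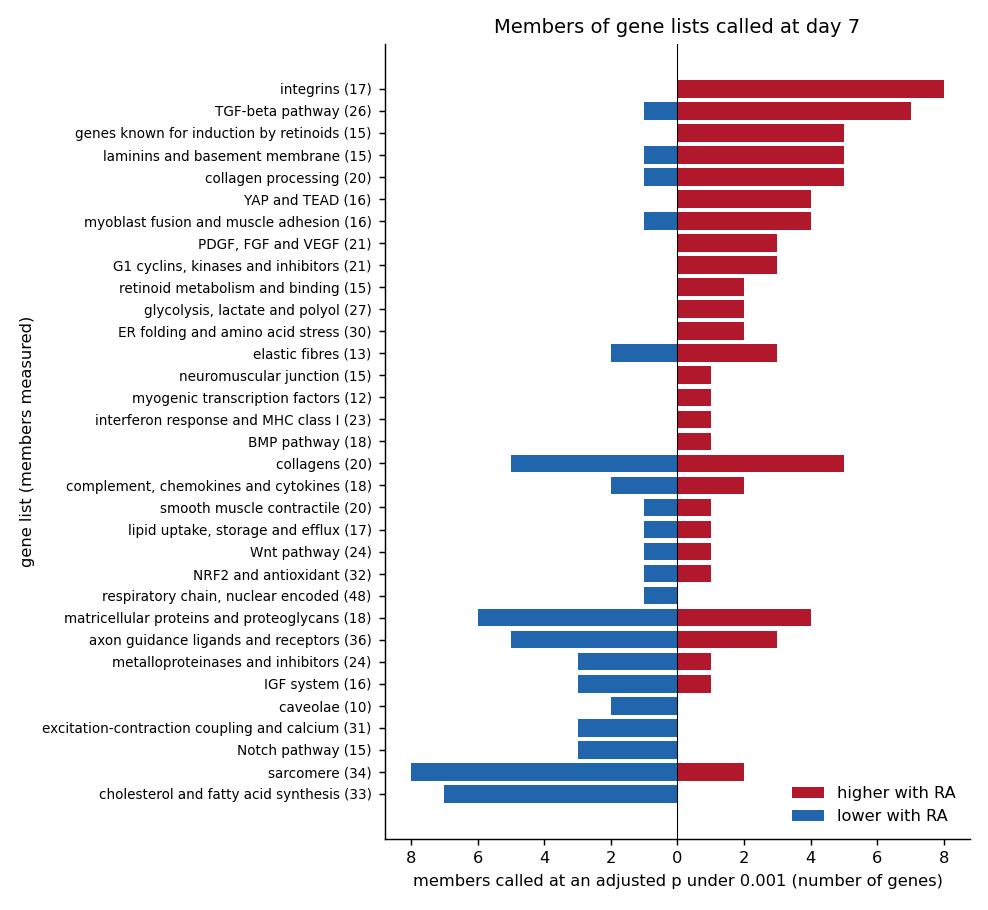
Number of members called higher (red, to the right) or lower (blue, to the left) at day 7 in each gene list with at least 1 call, with the number of measured members in brackets. Integrins had the most calls to the right without any to the left, and cholesterol and fatty acid synthesis the most to the left without any to the right.

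Cell cycle genes were counted in 3 lists. Of 21 measured G1 cyclins, kinases and inhibitors, 3 were called, all higher (1.87% of all genes). Ccnd1 (1q42), cyclin D1, which opens the passage through G1, rose from 878, 793 and 871 CPM to 1502, 1513 and 1453 CPM (log2 0.81 ± 0.0914, adjusted p = 1.44e-10). Cdkn2b, an inhibitor of the kinases that cyclin D activates, rose from 63.2, 61.8 and 49.4 CPM to 119.7, 134 and 137 CPM (log2 1.15 ± 0.173, adjusted p = 5.88e-07), and Gadd45a was the other call. Of 30 DNA replication and 29 mitosis genes, edgeR, DESeq2 and the limma fits called none, with medians of -0.20 and -0.12. At an unadjusted p under 0.05, 7 replication genes and 1 mitosis gene were lower and none was higher.

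Cholesterol and fatty acid synthesis was the list with most calls to the lower side after the sarcomere, 7 of 33 measured (21.2%, against 1.3% of all genes lower), with none higher and a median log2 difference of -0.31. At an adjusted p under 0.05, 14 were lower and 1 higher, against 3.28% and 4.13% of all genes. Hmgcs1, the synthase that makes HMG-CoA, fell from 663, 653 and 693 CPM to 368, 462 and 435 CPM (log2 -0.67 ± 0.101, adjusted p = 6.94e-07). Cyp51, a demethylase of lanosterol, fell from 721, 720.3 and 725 CPM to 440.5, 451 and 478 CPM (log2 -0.66 ± 0.097, adjusted p = 3.09e-07). Lss (0.96 ± 0.158), Nsdhl (0.86 ± 0.14), Fdps (0.68 ± 0.109) and Sqle (0.63 ± 0.106), further enzymes of sterol synthesis, fell by the log2 values in brackets. Abca1, the pump that exports cholesterol, rose from 56.1, 44.3 and 68.3 CPM to 161, 175 and 185 CPM (log2 1.63 ± 0.166, adjusted p = 5.44e-12). It belongs to a list of lipid uptake, storage and efflux (17 measured, 11.8% called). The other call of that list, the lipase Lpl, fell by 1.22 ± 0.263 and lost its call without any day 7 library but T7-RA replicate 1 (adjusted p up to 0.0225). The summed level of the synthesis list was 12755 to 13068 CPM without RA and 11188 to 11493 CPM with it.

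Genes of energy metabolism were counted in 3 lists. Ldhb (4q44), the lactate dehydrogenase chain typical of heart, rose from 179, 194 and 157 CPM to 525, 541 and 550.2 CPM (log2 1.61 ± 0.116, adjusted p = 4.46e-18). Sord, sorbitol dehydrogenase of the polyol pathway, rose from 187, 188 and 198 CPM to 418, 368 and 423 CPM (log2 1.08 ± 0.119, adjusted p = 9.09e-11). These were the 2 calls among 27 measured genes of glycolysis, lactate and polyols (7.41%). Of 48 nuclear-encoded respiratory chain genes 1 was called (2.08%), Cox8b, the muscle form of a cytochrome oxidase subunit, with 48 and 6 counts (ratio 7.15, interval 3.06 to 20.4). No gene of fatty acid oxidation and the citrate cycle (40 measured) and none of 38 cytosolic ribosomal proteins was called by edgeR, DESeq2 or the limma fits. At an unadjusted p under 0.05, 8 of the former and 10 of the latter passed, the 10 all lower.

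Stress and immune genes and proteases were covered by further lists. Nqo1, a quinone reductase used as a readout of NRF2, fell from 264, 261 and 272 CPM to 115, 138 and 156 CPM (log2 -0.96 ± 0.14, adjusted p = 2.74e-07). Of the 32 measured antioxidant genes, 1 other was called (6.25% in all, median -0.03), the peroxiredoxin Prdx5, which rose by 0.61 ± 0.127 and lost its call without any day 7 library but T7+RA replicate 3 (adjusted p up to 0.0127). B2m, the light chain of MHC class I, rose from 441, 464 and 487 CPM to 858, 801 and 768 CPM (log2 0.80 ± 0.101, adjusted p = 4.74e-09) as the single call among 23 interferon and MHC genes (4.35%, close to the 3.17% of all genes). Of 18 measured genes of complement, chemokines and cytokines, 2 were called higher and 2 lower (22.2%, against 3.17% of all genes), among them Lif, given above, and C1s, a protease of the classical complement pathway, which fell by 1.17 ± 0.157. Of 24 measured metalloproteinases and inhibitors, 3 were called lower and 1 higher (16.7%). This list does not hold Adamts8 and Adamts14, which rose and are given above. Adamts1 fell by 1.35 ± 0.135 and Adamts9 rose by 1.35 ± 0.159, both secreted metalloproteinases that cleave proteoglycans. The other falls lost their call with 1 library left out, that of Mmp15 (-1.35 ± 0.244) without T7+RA replicate 1 or 3 (adjusted p up to 0.00122) and that of Adamts10 (-0.74 ± 0.143) without T7+RA replicate 1 or 3 or T7-RA replicate 1 or 2 (up to 0.00552). In the list of ER folding and amino acid stress, 27 of 30 members had a positive log2 difference (median 0.21), but the 2 calls (6.67%), Hyou1 (0.54 ± 0.114) and Trib3 (1.03 ± 0.228), were both lost with 1 library left out (adjusted p up to 0.0106 and 0.012), Hyou1 without any day 7 library but T7+RA replicate 2, and Trib3 without any day 7 library or T14+RA replicate 1.

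Markers of other cell types were also counted. The 7 measured fibroblast markers summed to 27564 to 31186 CPM in T7-RA and 26574 to 29868 CPM in T7+RA, overlapping ranges, with 2 called lower, Postn and Col3a1 (28.6%, against 3.17% of all genes). The 7 smooth muscle markers summed to 4110.3 to 5654 CPM and 4892 to 5486 CPM, with Smtn called lower. The call of Col3a1 (log2 -0.42 ± 0.0838) was lost in 5 of the 6 fits without a day 7 library, all but the one without T7-RA replicate 2 (adjusted p up to 0.00762). Of 8 endothelial markers, 2 were in the table, with sums of 10.2 to 32.2 CPM without RA and 11.4 to 22.8 CPM with it, and none was called. The single measured leukocyte marker, the 3 neural ones, the single epithelial one and the single adipocyte one were also not called by edgeR, DESeq2 or the limma fits, and none of them or of the endothelial markers had an unadjusted p under 0.05. Pecam1, Cdh5, Ptprc and Epcam, defining markers of endothelium, leukocytes and epithelium, were not among the genes analysed here.

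At day 14, RA changed 557 genes (4.81% of those tested), 285 higher (2.46%) and 272 lower (2.35%), and 247 genes were called at both days. They made up 67.3% of the day 7 calls and 44.3% of the day 14 calls, and the 2 comparisons share no library. Whether the RA change itself differed between the days was tested as a contrast of the 2 changes, which passed for 86 genes (0.743% of those tested, adjusted p under 0.05), with a higher value at day 7 in 53 (0.458%) and a lower one in 33 (0.285%). It passed for 33 of the 367 day 7 calls (8.99%). In 24 of these 33 the change was larger in size at day 7, and 21 of the 24 were higher with RA. Since the 33 genes were chosen by their day 7 call, a larger change at day 7 was favoured by that choice, and these counts are a description. Among the 120 genes called at day 7 but not at day 14 the difference passed in 16, so for the others a difference between days was not shown.

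Igf1 had the largest difference between the days among these 33 genes, with a log2 change of -3.12 ± 0.429 at day 7 and 0.19 at day 14, a difference of -3.32 ± 0.542 (adjusted p = 4.83e-05). Abi3bp changed by -2.83 at day 7 and by -0.58 at day 14 (difference -2.25 ± 0.483, adjusted p = 0.0058), and Fmod by -3.02 and -1.72 (difference -1.30 ± 0.308, adjusted p = 0.0221). Nid2 was the single gene called in opposite directions. It was at 229, 203 and 186 CPM in T7-RA and 419, 435 and 409.6 CPM in T7+RA, and it changed by 1.03 at day 7 and by -1.07 at day 14 (difference 2.10 ± 0.184, adjusted p = 3.06e-13).

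Krt7, a keratin of simple epithelia, rose from 65.6, 90 and 46.5 CPM to 199.6, 234 and 190.3 CPM at day 7 (log2 1.62 ± 0.16) but changed by -0.19 at day 14 (difference 1.81 ± 0.301, adjusted p = 6.68e-05). Etv4, an ETS transcription factor, and Dusp6, a phosphatase of ERK, rose by 1.73 ± 0.235 and 0.96 ± 0.21 at day 7 and changed by 0.24 and -0.43 at day 14 (differences 1.49 ± 0.354 and 1.38 ± 0.335, adjusted p = 0.018 and 0.0221). Both genes were higher in every T7+RA library than in any T7-RA library. Cd200, a surface glycoprotein, rose by 1.33 ± 0.257 and changed by -0.51 at day 14 (difference 1.84 ± 0.471, adjusted p = 0.0373). The day 7 call of Dusp6 was lost without any of the 6 day 7 libraries (adjusted p up to 0.0173), and that of Cd200 without T7+RA replicate 1 or T7-RA replicate 2 or 3 (up to 0.00269).

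Cyclin D1, the integrin chain Itga3 and the scaffold Akap12 also had a larger change at day 7. Ccnd1 rose by 0.81 ± 0.0914 at day 7 and changed by -0.06 at day 14 (difference adjusted p = 7.34e-06), Itga3 rose by 2.09 and 0.86 (3.73e-05), and Akap12 by 3.50 and 2.40 (6.69e-06). In the other direction, Spp1 rose by 1.01 at day 7 and by 2.47 at day 14 (difference -1.46 ± 0.247, adjusted p = 9.8e-05), and Cp, the copper carrier ceruloplasmin, from 34.6, 32.3 and 34.9 CPM to 123, 87.3 and 92.6 CPM at day 7 and by 2.84 on the log2 scale at day 14 (difference -1.27 ± 0.267, adjusted p = 0.00451). For Dhrs3 the changes were 5.34 and 5.13, a difference of 0.21 ± 0.432 that did not pass (adjusted p = 0.956). Of the differences given here, those of Igf1, Abi3bp, Nid2, Krt7, Ccnd1, Itga3, Akap12, Spp1 and Cp passed in all 15 fits that leave out a library, whereas those of Fmod, Etv4, Dusp6 and Cd200 passed in 8, 9, 11 and 4 of them.

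**Figure D5:**
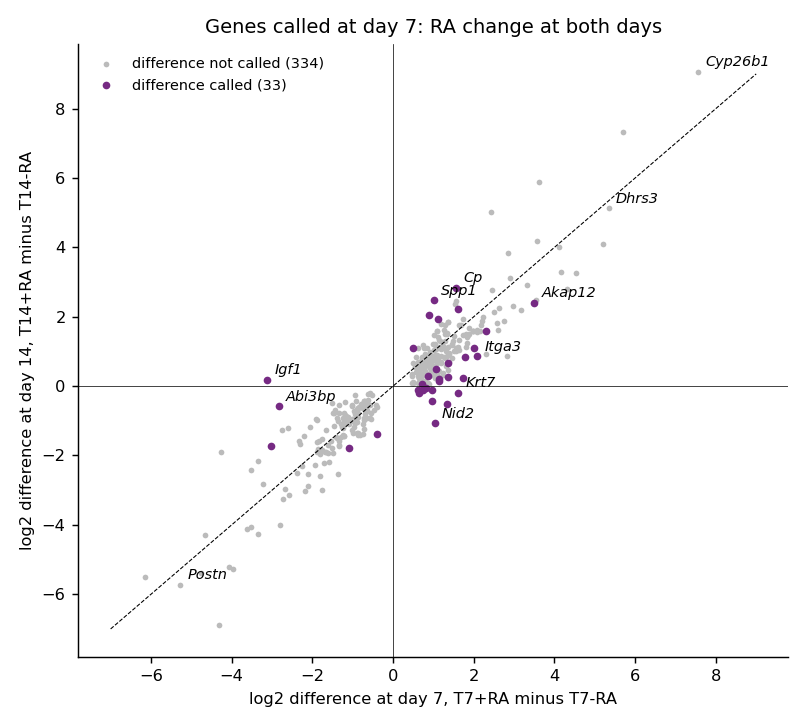
Log2 RA change at day 14 (y axis) against that at day 7 (x axis) for the 367 genes called at day 7, with a dashed line where both are equal. The 33 genes whose change differed between the days are purple: most lie to the right of 0 and under the line, Spp1 and Cp lie above it, and Nid2 lies in the quadrant of opposite directions.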

How the data were processed

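RNA was sequenced from 15 cultures of H9c2 in 5 groups of 3. The authors sequenced stranded mRNA libraries as paired reads of 75 bases, trimmed them on the Galaxy platform, mapped them with HISAT2 to the rat genome (Rnor_6.0 per the labels) and used featureCounts for the count of each gene. The deposited counts are raw whole numbers, not normalized, and the authors dropped genes that reached no more than 20 counts over the 15 libraries together (smallest sum 21). The strand setting of the counting, the tool versions and the annotation release are not given in the sources used here, so overlapping and antisense genes cannot be told apart with certainty. The lengths deposited beside the counts (another column of that file) entered no result. Symbols, identifiers and cytogenetic bands are those deposited with the counts, and 27 symbols that name more than 1 row were read from the row with most counts.

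Groups and replicate numbers came from the labels. Counts were fitted in edgeR 4.0.16 (R 4.3.3) with TMM scaling, 5 group means over all 15 libraries and the robust quasi-likelihood F test (common dispersion 0.00781). P-values were adjusted over all 11574 genes by the Benjamini-Hochberg method and called at 0.001, the threshold of the study's methods, and at 0.05 for the difference between days. The study used limma, whose voom and trend forms (limma 3.58.1) were alternatives, as were DESeq2 1.42.0, other scalings and filters, quantile normalization of log2(count + 1), the 6 day 7 libraries alone, a replicate block, thinned counts and each library left out in turn. Errors of log2 values are SE, and n is 3 in each group. P-values measure the spread between cultures of 1 line.

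A gene with at most 3 counts in each library of a group is given by its summed counts and the ratio of the scaled sums with an exact 95% interval. Such intervals describe counting error alone, because reads without molecular identifiers are not independent molecules.

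The 40 gene lists, the 9 marker lists and the genes compared were chosen with earlier results of these data known. Genes named were the 12 with the largest rise and the 12 with the largest fall among called genes with no overlap between groups and a mean count of at least 10 over the 6 libraries, the 6 of each direction with the lowest p, the 10 with the largest difference between days among called genes, and list members. The call was tested on simulated counts in the comparison of T7+RA with T7-RA: edgeR recovered 38% of 200 genes given a log2 difference of 1 (74.5% at or above the median count, 5.66% below) and 74% of 200 given one of 2, with 0 false calls among 11374 genes in each. Results for some genes that met these rules are not reported here.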

Additional observations from a re-analysis of the deposited data

Results flagged for a closer look

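The RA change at day 7 differed from that at day 14 in 86 genes by the test of the difference itself (edgeR, adjusted p under 0.05), and the values below are the log2 change at day 7 minus that at day 14 for named genes among them. Positive values above 1 were found for Nid2 (2.10), Cd200 (1.84), Krt7 (1.81), Etv4 (1.49), Dusp6 (1.38), Itga3 (1.23), Akap12 (1.10), Chrnb1 (1.08), Myod1 (1.04) and Cdkn2b (1.01). Smaller positive values were found for Igf2 (0.95), Ccnd1 (0.87), Smad3 (0.85), Itga5 (0.73), Sema3c (0.71) and Ccn2 (0.58). Negative values were found for Igf1 (-3.32), Abi3bp (-2.25), Spp1 (-1.46), Fmod (-1.30), Cp (-1.27) and Ldhb (-0.62).

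The differences of Nid2, Igf1, Igf2, Ccnd1, Akap12, Itga3, Spp1, Krt7, Cp, Itga5, Smad3 and Abi3bp passed in all 15 fits that leave out a library. Chrnb1 lost its difference without T14-RA replicate 2 or 3 or T7+RA replicate 3 (adjusted p up to 0.0778), and Dusp6 without T14+RA replicate 1, T14-RA replicate 2 or replicate 3 of T7+RA or T7-RA (up to 0.31). Etv4 passed in 9 of the 15 fits (up to 0.117) and failed without T14+RA replicate 1, T14-RA replicate 1 or 2, T7+RA replicate 1, or T7-RA replicate 2 or 3. Ccn2, Fmod and Sema3c passed in 8 (up to 0.115, 0.165 and 0.251), Cdkn2b and Myod1 in 7 (up to 0.13 and 0.168), Ldhb in 5 (up to 0.245) and Cd200 in 4 (up to 0.128), and for each of these 7 genes the fits that failed left out libraries of T7-RA, T7+RA, T14-RA and T14+RA and never one of T0. For Myod1 the day 7 change itself did not pass the threshold.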

How the results depend on the processing

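The count of 367 genes called at day 7 (216 higher, 151 lower) became 858 (478 and 380) at an adjusted p under 0.05 and 97 (55 and 42) by limma on quantile-normalized log2 counts, which on simulated counts recovered 0 of 200 genes changed by 1 and 112 of 200 changed by 2 on the log2 scale. Asking for at least 10 counts in every library left 173 genes called higher and 100 lower. This filter dropped every gene with fewer counts in any of the 15 libraries, and which group removed the calls was not counted. The other scalings, filters and tools gave 273 to 375 genes, and the 6 day 7 libraries alone 496. Without 1 library at a time, 273 (without T7+RA replicate 1) to 432 (without T0 replicate 2) genes were called, 163 to 254 higher and 105 to 178 lower, and 228 of the 367 (62.1%) kept their call without any 1 of the 6 day 7 libraries. No called gene changed sign under any of these alternatives. The count of 86 genes that differed between the days became 25 at an adjusted p under 0.001, 54 by DESeq2 and 22 by limma on quantile-normalized counts, and 51 to 129 without 1 library. It was 51 without T7+RA replicate 3, 56 without T7+RA replicate 2 or T14+RA replicate 1, and 57 without T14-RA replicate 1. The cause was not tested.

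At day 7 no pairing of the cultures by the replicate numbers of the labels was seen. Deviations from the group means of same-numbered libraries correlated by -0.0357 to 0.047, those of other libraries by -0.074 to 0.0529. Other days were not compared, and so few pairs cannot exclude pairing. With the replicate block 429 genes were called at day 7 (253 higher, 176 lower) and 118 differed between the days, and Myog and Myod1 passed the threshold (adjusted p = 0.000646 and 0.000248). Depth limited what could be seen, as few genes below the median count over all libraries were recovered at a log2 difference of 1 in the simulated counts.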
